A study of Danio rerio with 13 samples.

Results

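The long arm of zebrafish chromosome 4 was examined by ChIP-seq, the sequencing of chromatin pulled down with an antibody, in cells of the heart ventricle. It was taken as the promoter windows on chromosome 4 that start beyond 27000000, which is 1629 windows of 42037 in all, at 1142 genes. Windows of chromosome 4 below that position, called the short arm here, number 1039 at 586 genes, and the rest of the genome holds 39369. The windows were picked by position alone, so no window was included or left out for its own level or change. The region itself was chosen with earlier results of these data known.

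The 13 samples comprise, for each of H3K4me3 and H3K27me3, 3 libraries from hearts 5 days after resection of the ventricular apex and 3 from uninjured hearts, with 1 mixed input sample that was not used here. All fish were TuAB, a laboratory strain, aged 1 to 1.5 years. The apex of the ventricle was dissociated, and cells held back by a 10 µm mesh, which keeps the large heart muscle cells, were fixed and used. No transgene or mutation is named in the labels. The libraries of a group are described as biological replicates, and how many fish went into each is not stated.

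H3K4me3 is trimethylation of lysine 4 of histone H3, found at the promoters of genes that are transcribed or ready to be. H3K27me3 is trimethylation of lysine 27, laid down by the Polycomb complex PRC2, and it typically covers promoters kept silent. The long arm of chromosome 4 is known as the most heterochromatic arm of the zebrafish genome: it replicates late in S phase, is dense in repeats, and carries large tandem families of C2H2 zinc finger genes and of NLR genes, which are immune receptors. In wild strains it also carries the major sex determining region, which laboratory strains have lost.

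The long arm had a lower median H3K4me3 signal and a higher median H3K27me3 signal than the other promoter windows. Signal here means the normalised read count of a 4 kb stretch around a transcript start, averaged by the authors over the libraries of a mark in their deposited tables. The median H3K4me3 signal was 42.4 on the long arm, 106 on the short arm and 89.7 in the rest of the genome. The median H3K27me3 signal was 69.8 on the long arm, 53.8 on the short arm and 55.7 in the rest of the genome. The 95% interval of the median, from order statistics over windows, was 41.1 to 43.9 for H3K4me3 and 68.3 to 71.4 for H3K27me3 on the long arm. These intervals cover the sampling of windows and hold no spread between libraries, since the tables give 1 value per window.

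Windows with strong H3K4me3 were scarce on the long arm. Only 334 of its windows (20.5%) lay above the median of all windows, against 53.3% on the short arm and 51.1% in the rest of the genome. Above the upper quartile of all windows, a mean count of 248, lay 45 long-arm windows (2.76%) at 26 genes, against 25.8% on the short arm and 25.9% in the rest of the genome. The signal of long-arm windows ran from 4.01 at si:dkey-207m2.4 to 604 at cerk, with 90% of windows from 18.9 to 188.

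H3K27me3 showed the opposite order. Of the long-arm windows, 795 (48.8%) lay above the upper quartile of all windows for this mark, a mean count of 70.4, against 20.8% on the short arm and 24.1% in the rest of the genome. The H3K27me3 count exceeded the H3K4me3 count in 74.7% of long-arm windows, 43.1% of short-arm windows and 44.6% of windows in the rest of the genome. The marks come from separate libraries of unknown depth and the input was not used. These shares therefore compare counts and do not measure the balance of the marks. How reads with several matches were treated is not stated. The part that repeats play in the differences between regions was not tested. The spread of H3K27me3 on the arm was narrower than that of H3K4me3, with an interquartile range from 53.8 to 87.9 and a full range from 6.48 to 290.

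**Figure D1:**
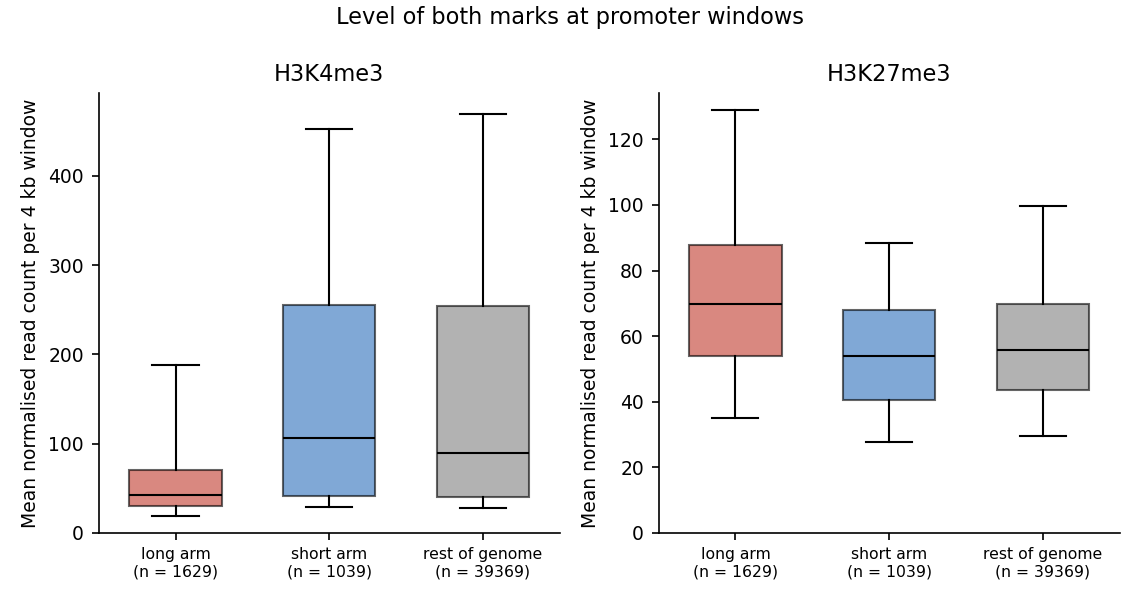
Mean normalised read count per 4 kb window for H3K4me3 and H3K27me3 on the long arm, on the short arm and in the rest of the genome. Boxes span the interquartile range of windows with the median as a line, and whiskers run from the 5th to the 95th percentile; the long-arm box is the lowest for H3K4me3 (median 42.4) and the highest for H3K27me3 (median 69.8).

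None of the other 24 chromosomes had medians at the level of the arm. Across them the median H3K4me3 signal ran from 71.7 on chromosome 15 to 113 on chromosome 17, all above the long arm. The median H3K27me3 signal ran from 53.0 on chromosome 12 to 58.2 on chromosome 7, all below it. Smaller pieces of the genome came closer. Of 263 stretches of 5 Mb elsewhere with at least 20 windows, 8 had a median H3K4me3 signal at or below that of the arm and 0 had a median H3K27me3 signal at or above it, the highest being 68.1.

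The gap in H3K4me3 was narrower among windows that stand alone. On the long arm 49.4% of windows overlapped another window, against 63.4% on the short arm and 60.1% in the rest of the genome. Overlapping windows belong to alternative starts of a gene or to neighbouring genes and share reads. Among windows that overlapped no other, the median H3K4me3 signal was 37.1 on the long arm, 45.6 on the short arm and 44.4 in the rest of the genome. The same windows had a median H3K27me3 signal of 70.3 on the long arm, 61.3 on the short arm and 61.7 in the rest of the genome. With 1 window per gene, that of highest signal, the medians were 43.9, 126 and 103 for H3K4me3 and 74.1, 57.3 and 60.1 for H3K27me3, in the same order of regions.

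The marks also related to each other differently over the whole arm. Across windows, Spearman's rho between the mean counts of H3K4me3 and H3K27me3 was 0.04 on the long arm, -0.53 on the short arm and -0.43 in the rest of the genome; both counts of a window come from the same sequence, and windows are not independent. Within levels of H3K4me3 this contrast was small. Among windows at or below the median H3K4me3 signal of all windows, rho was 0.34 over 1295 long-arm windows, 0.32 on the short arm and 0.36 in the rest of the genome. Above that median it was -0.37 over 334 long-arm windows, -0.36 on the short arm and -0.32 in the rest of the genome. The H3K27me3 signal was higher on the arm in both sets. Its median was 73.0 on the long arm, 66.1 on the short arm and 66.4 in the rest of the genome where H3K4me3 was low, and 57.2, 42.4 and 46.7, in the same order of regions, where H3K4me3 was high.

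The arm was not even along its length. Its first stretch, from 27 to 30 Mb, held 72 windows with a median signal of 84.1 for H3K4me3 and 51.4 for H3K27me3, close to the short arm. From 30 to 70 Mb, 1205 windows at 869 genes had medians of 38.9 for H3K4me3 and 76.4 for H3K27me3. In the last stretch, from 70 to 77 Mb, 352 windows had medians of 68.3 for H3K4me3 and 57.2 for H3K27me3. These limits were set after the profile along the arm had been seen, so the differences between the stretches are a description.

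**Figure D2:**
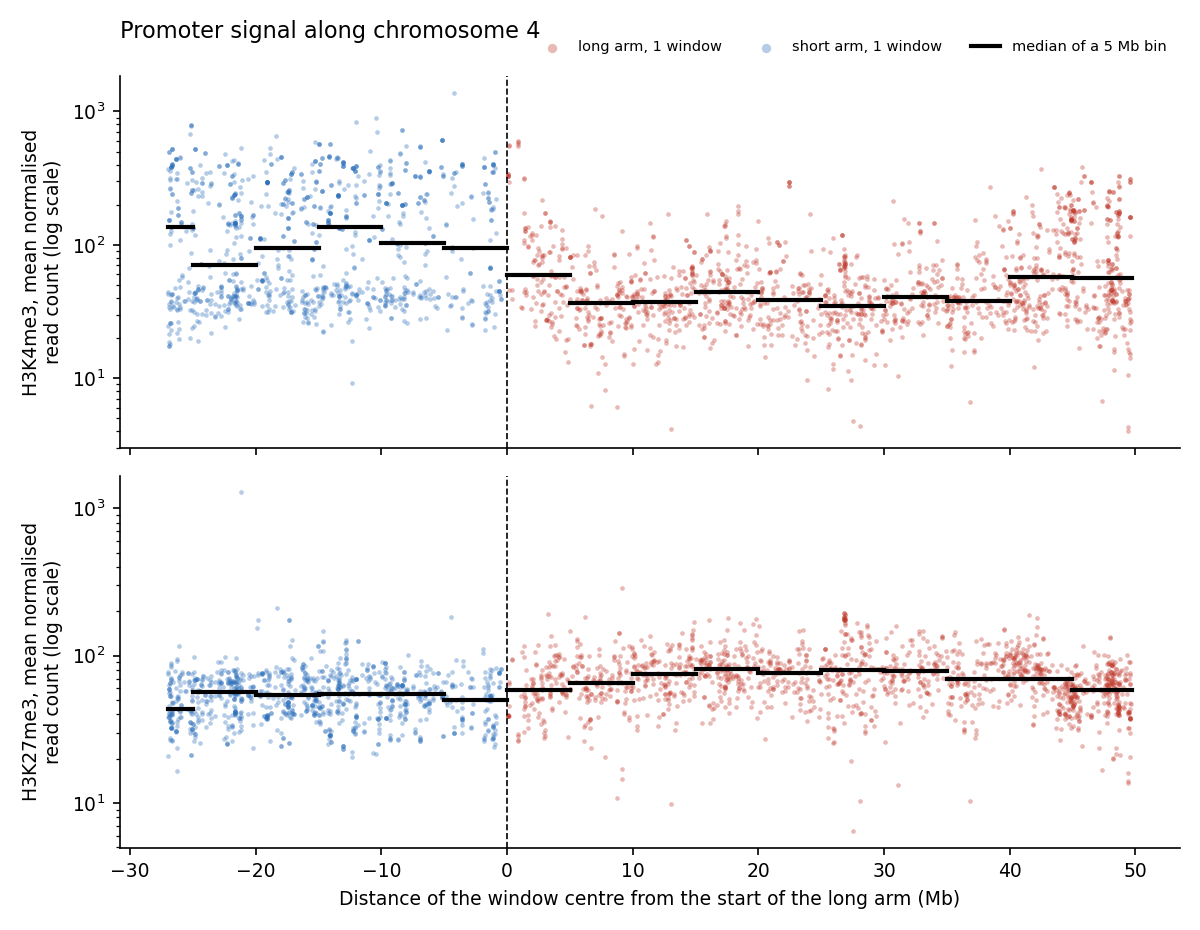
Mean normalised read count (log scale) of each chromosome 4 window against the distance of its centre from the start of the long arm in Mb, for H3K4me3 above and H3K27me3 below. Points are windows, red for the long arm and blue for the short arm, and black lines are medians of 5 Mb bins, which for H3K4me3 lie between 34.6 and 59.2 on the long arm and between 70.5 and 136 on the short arm.

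At the boundary itself the values ran the other way. The windows just inside were at creld2, a gene of the endoplasmic reticulum, with H3K4me3 signals of 340 and 340, and at alg12, a mannosyltransferase of the endoplasmic reticulum, with 329, all with an H3K27me3 signal of 39.1. The windows just outside were at iqsec3a, with H3K4me3 signals of 39.3 and 39.5 and H3K27me3 signals of 81.8 and 81.1, and at b4galnt3a, with 42.1 for H3K4me3 and 66.7 for H3K27me3. The windows just inside thus had more H3K4me3 and less H3K27me3 than those just outside. The windows just inside overlap one another, as do those of iqsec3a, and share reads, so few separate places are compared.

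Strong H3K4me3 promoters clustered at the ends of the arm. Of the 26 genes with a window above the upper quartile, 8 lay in the first stretch, 4 in the middle and 14 in the last. The 8 of the first stretch form pairs whose windows overlap and share reads, so they are fewer separate places than genes. The pairs are creld2 with alg12, zbed4 with brd1a, tbc1d22a with cerk, and tprkb with alg10. In the first stretch the ceramide kinase gene cerk had windows at 604 and 556, and tbc1d22a, a gene of the TBC domain family of Rab GTPase regulators, whose windows overlap those of cerk, had 593 and 567. The bromodomain gene brd1a reached 560 and zbed4, whose window overlaps that of brd1a, 555. H3K27me3 at these strongest windows was low: 28.5 at cerk, 26.9 at tbc1d22a, 45.9 at brd1a and 39.1 at zbed4.

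In the last stretch the strongest H3K4me3 window was that of RAB21, a small GTPase of endosomal traffic, with 384 and an H3K27me3 signal of 24.5. The receptor phosphatase gene ptprb, active in blood vessels, reached 329 at its window from 72912079 to 72916078 but 47.8 at its other start, where H3K27me3 was 117. Further strong windows of this stretch were at nup50, of the nuclear pore, with 296, PSMB10, of the immunoproteasome, with 295, and pacsin2, of membrane trafficking, with 312. The telomere repeat binding gene terfa had 298 at its strongest window and between 14.2 and 27.6 at 3 others.

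In the middle stretch 7 windows at 4 genes passed the upper quartile of H3K4me3, out of 1205. The highest was a gene with the symbol si:dkey-16p6.1, at 69491880 to 69495879, with 368. The zinc finger gene znf1141 had 296 at its window from 49426736 to 49430735, which overlaps that of si:dkey-82i20.5 with 276. The fourth was BX511215.2 with 272.

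Windows strong in both marks, meaning above the upper quartile of all windows for each, numbered 10 of the 1629 on the long arm. These quartiles were mean counts of 248 for H3K4me3 and 70.4 for H3K27me3. The share of such windows in the other regions is not given here, so the count has no measure beside it. Of the 10, 7 were the middle-stretch windows just named. Their H3K27me3 signals were 93.2 at the strongest znf1141 window, 82.3 at si:dkey-82i20.5, 89.1 at BX511215.2 and 74.9 at si:dkey-16p6.1. The other 3 were at trim24, a cofactor of transcription, with 296 for H3K4me3 and 76.2 for H3K27me3, and at terfa, with 298 and 76.8 at the stronger of its 2 windows. By the product of the ranks of the marks within the arm, which favours windows high in both, the leading genes were znf992, with 128 for H3K4me3 and 290 for H3K27me3, znf1129, with 147 and 146, and ms4a17a.11, with 154 and 133.

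The highest H3K27me3 signals of the arm fell mostly in 1 place. The zinc finger gene znf992, at 36118034 to 36122033, had the highest, 290. This was below the highest window of the short arm, 1282, and that of the rest of the genome, 2712. Of the 10 highest windows, 6 belonged to genes named after the clone CT583728, whose 18 windows lie between 53791842 and 53943533. Some of these windows overlap one another and share reads. Their H3K27me3 signals ran from 54.3 to 194 with a median of 175, and their H3K4me3 signals from 29.7 to 92.8. Annotated 5.8S ribosomal RNA copies, part of the ribosomal RNA repeat unit, lie in the same place: 4 of the 5 on the arm start between 53795431 and 53879162, and the fifth at 66540176. These 5 windows had H3K27me3 signals of 178, 178, 177, 174 and 149 and H3K4me3 signals between 65.3 and 80.4. The only other windows of this kind, 2 on chromosome 5, had 1568 and 837 for H3K27me3 and 756 and 390 for H3K4me3. The sources do not say how reads matching several copies were counted, so the levels of repeated genes are uncertain.

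**Figure D3:**
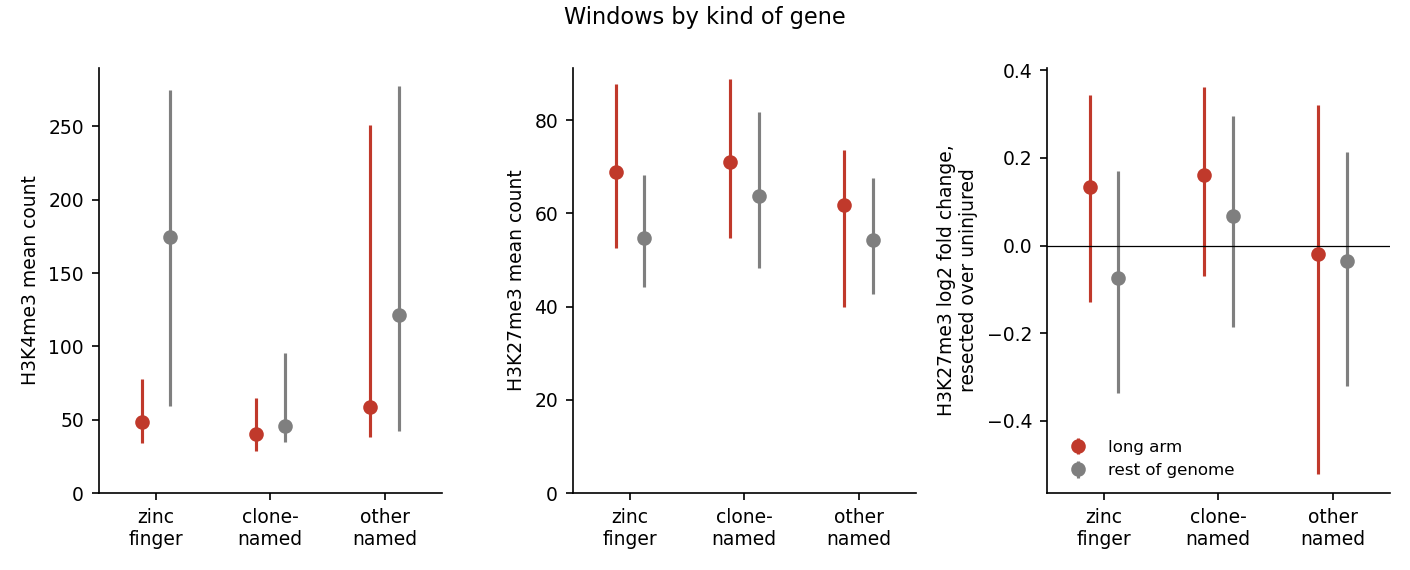
Signal of H3K4me3 and of H3K27me3, as mean normalised read count, and log2 fold change of H3K27me3, resected over uninjured, for windows of zinc finger, clone-named and other named genes. Points are medians and bars the interquartile range of windows, red for the long arm and grey for the rest of the genome; zinc finger windows differ most in H3K4me3, with a median of 48.4 on the long arm against 174 elsewhere.

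The arm is made of different genes from the rest of the genome. Zinc finger genes, many of them C2H2 proteins that bind DNA, were 171 of its 1142 genes (15.0%) and 240 genes (1.06%) in the rest of the genome; the short arm had 1. Genes known only by the name of a sequencing clone were 894 (78.3%) on the long arm, 127 (21.7%) on the short arm and 5181 (22.8%) in the rest of the genome. Only 68 genes (5.95%) of the long arm had another kind of name, against 78.0% on the short arm and 75.9% in the rest of the genome. The grouping follows the symbol and the gene names of the reference tables, so zinc finger or NLR genes under a clone name are counted as clone-named where no table names them.

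Zinc finger promoters carried far less H3K4me3 on the arm than elsewhere. Their median H3K4me3 signal was 48.4 over 278 long-arm windows, with an interquartile range from 34.5 to 77.6, against 174 over 433 windows in the rest of the genome, with an interquartile range from 59.5 to 274. Their median H3K27me3 signal was 68.8 on the long arm against 54.7 in the rest of the genome. Among zinc finger windows that overlapped no other, the H3K4me3 medians were 42.0 over 83 long-arm windows and 146 over 153 windows in the rest of the genome, a gap of the same order. By its strongest window, the median zinc finger gene of the arm had an H3K4me3 signal of 50.9, and 39 of 171 genes lay above the median of all windows.

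The most strongly marked zinc finger genes after znf1141 were znf989 with 182, znf1075 with 179, the 2 gene IDs named znf971, whose windows overlap, with 179 and 179, znf1009 with 177 and znf1128 with 172. They differed in H3K27me3, which was 53.3 at znf989, 96.1 at znf1075, 42.8 and 43.1 at znf971, 23.6 at znf1009 and 28.5 at znf1128. High H3K4me3 therefore occurred among them with H3K27me3 both above and below the median of all windows, 56.1.

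Clone-named genes had similar H3K4me3 medians in the 3 regions but fewer strong windows on the long arm. Their median signal was 40.6 over 1218 long-arm windows, 43.9 on the short arm and 45.8 in the rest of the genome. Above the upper quartile of all windows lay 0.903% of clone-named windows on the long arm, 9.55% on the short arm and 8.44% in the rest of the genome. Their median H3K27me3 signal was 71.0 on the long arm, 65.9 on the short arm and 63.8 in the rest of the genome. The other named genes of the arm had a median H3K4me3 signal of 58.6 over 122 windows, against 135 on the short arm and 122 in the rest of the genome, and their H3K27me3 medians were 61.7, 52.4 and 54.3 in the same order. Both gaps were small among other named windows that overlapped no other, 40 on the long arm. The H3K4me3 medians of these were 42.2 on the long arm, 46.9 on the short arm and 45.8 in the rest of the genome. Their H3K27me3 medians were 62.5, 58.2 and 60.6 in the same order.

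Several families had mostly low H3K4me3 signals. The ms4a17a genes, which belong to the family of membrane proteins that includes the B cell antigen CD20, number 14 in 24 windows between 74910147 and 75195809. Their H3K4me3 signals ran from 31.5 to 154, with 1 gene, ms4a17a.11, above the median of all windows, and their H3K27me3 signals from 52.1 to 133. The 4 slco1 genes, organic anion transporters, had H3K4me3 signals between 23.2 and 44.9 and H3K27me3 signals between 44.6 and 80.2. Only 2 genes were identified as NLR genes, si:dkeyp-4f2.1 and si:dkeyp-86c4.1, whose 4 windows had a median H3K4me3 signal of 22.8 and a median H3K27me3 signal of 65.6. The windows of U1, an RNA of the spliceosome, had H3K4me3 signals of 37.2 and 28.0 and H3K27me3 signals of 125 and 101. Among the windows analysed, none on the arm was annotated as 5S ribosomal RNA or microRNA. Such genes were few elsewhere too. The rest of the genome held 20 of 5S ribosomal RNA and 7 microRNA genes, and the short arm 1 microRNA gene. No window of any region was annotated as GIMAP.

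One clone name recurs along the arm. The symbol si:dkey-16p6.1 is shared by 22 gene IDs with 44 windows between 31700248 and 74863613. By the strongest window, their H3K4me3 signals ran from 11.3 to 368 with a median of 65.0, and 9 of the 22 lay above the median of all windows. Their H3K27me3 signals were more alike, from 45.6 to 125 with a median of 81.4. Whether these gene IDs are copies of a single gene, and whether reads were shared among them, was not tested.

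H3K4me3 changed at few long-arm promoters after resection. In the authors' deposited table, which gives Wald tests of resected over uninjured hearts with an adjusted p per window, 3 long-arm windows were called at an adjusted p under 0.05, with 0 higher (against 1.44% of all windows that have an adjusted p) and 3 lower (against 1.6%). They were 0.490% of the 612 long-arm windows that have an adjusted p, against 3.04% of all windows that have one (24913), 4.59% on the short arm (29 of 632) and 3.06% in the rest of the genome (725 of 23669). Among clone-named windows with an adjusted p, 3 of 411 were called on the long arm, 0 of 58 on the short arm and 68 of 2886 (2.36%) elsewhere. Of the 29 called on the short arm, 16 lay between 2 and 7 Mb and 9 between 7 and 12 Mb. Among windows that overlapped no other, 1 of 825 was called on the long arm, 5 of 380 on the short arm and 235 of 15689 elsewhere. An adjusted p is given only at mean counts of 51.8 or more. Of long-arm windows 37.6% reached this count, against 60.8% on the short arm. At an unadjusted p under 0.05, which every window has, the share was 5.10% on the long arm of 1629, 10.6% on the short arm, 8.55% in the rest of the genome and 8.47% over all windows. Of these long-arm windows 25 were higher (1.53%, against 3.83% over all windows) and 58 lower (3.56%, against 4.64% over all windows).

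The share of windows called varied with the signal. In quartile 3 of H3K4me3, mean counts from 82.9 to 248, where all windows have an adjusted p, 2 of 289 long-arm windows (0.692%) were called, against 20 of 286 on the short arm (6.99%) and 519 of 9934 in the rest of the genome (5.22%). At an unadjusted p under 0.05 the shares in that quartile were 5.19% on the long arm, 21.7% on the short arm and 16.4% in the rest of the genome, at median signals of 128, 164 and 165 in the same order. In the lowest quartile, which holds 738 long-arm windows and none with an adjusted p, the shares were 4.74% on the long arm, 4.72% on the short arm and 3.93% in the rest of the genome. They were 5.57%, 7.54% and 8.02% in quartile 2 and 4.44%, 6.72% and 5.73% in the highest, in the same order. The long arm thus had the smallest share in the upper 3 quartiles and not in the lowest. Windows that overlap share reads, so these are counts of windows and not of independent promoters.

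The 3 called windows lay at 2 places, both in the middle stretch. In the authors' deposited table the window of si:dkey-16p6.1 (gene ID ENSDARG00000099262) at 66448509 to 66452508, at a mean count of 128, had a log2 fold change of -1.19 with a standard error of 0.27 and an adjusted p of 0.00148. The window of si:dkey-237g15.2, at 66449359 to 66453358, overlaps it and had -1.04 with a standard error of 0.27 and an adjusted p of 0.00734 in the same authors' deposited table. The window of si:dkey-124l13.1, at 45866779 to 45870778, with a mean count of 70.7, had -1.17 with a standard error of 0.29 and an adjusted p of 0.00501 there. H3K27me3 at si:dkey-124l13.1 was high, at a mean count of 149, and its log2 fold change was -0.47 (unadjusted p 0.163), whereas at the overlapping pair the H3K27me3 log2 fold changes were 0.03 and -0.11.

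Of the 22 genes that share the symbol si:dkey-16p6.1, the called one was the only one, among 18 windows with an adjusted p. Over all windows with an adjusted p, 3.04% were called. The gene also has a second window, at 66492814, where the mean count was 29.5 and the log2 fold change 0.03. The gene of this symbol with the strongest H3K4me3 signal, 368, had a log2 fold change of 0.05.

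No long-arm window was called higher. Nearest were the 2 windows of znf1025, with log2 fold changes of 0.85 and 0.83 and adjusted p of 0.0765 and 0.0867 in the authors' deposited table, and ftr64, of the finTRIM family of antiviral ubiquitin ligases, with 0.72 and an adjusted p of 0.112. Below the count at which an adjusted p is given, CU468012.1 had 0.90 (unadjusted p 0.00269) and si:ch211-263l8.1 had 0.82 (unadjusted p 0.00580), and on the lower side BX321887.1 had -1.16 (unadjusted p 8.48e-05) and CT990567.2 had -1.05 (unadjusted p 0.000374). With the Benjamini-Hochberg adjustment taken over all windows instead, these last 2 would join the called ones, for 5 in all.

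The median H3K4me3 log2 fold change was 0.00 on the long arm, -0.00 on the short arm and 0.01 in the rest of the genome. None of the 133 zinc finger windows of the arm with an adjusted p was called by the authors' Wald test, against 3.04% of all windows that have one. Of the 278 zinc finger windows, 16 had an unadjusted p under 0.05 (5.76%, against 8.47% over all windows). In the rest of the genome 3 of 338 zinc finger windows were called (0.888%), also below the share over all windows. There the share with an unadjusted p under 0.05 was 5.77%, close to that on the arm. At the strong promoters of the arm the log2 fold change was -0.07 at the stronger cerk window, 0.08 at the stronger brd1a window and 0.15 at RAB21, and ptprb, with -0.59, had an adjusted p of 0.201.

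**Figure D4:**
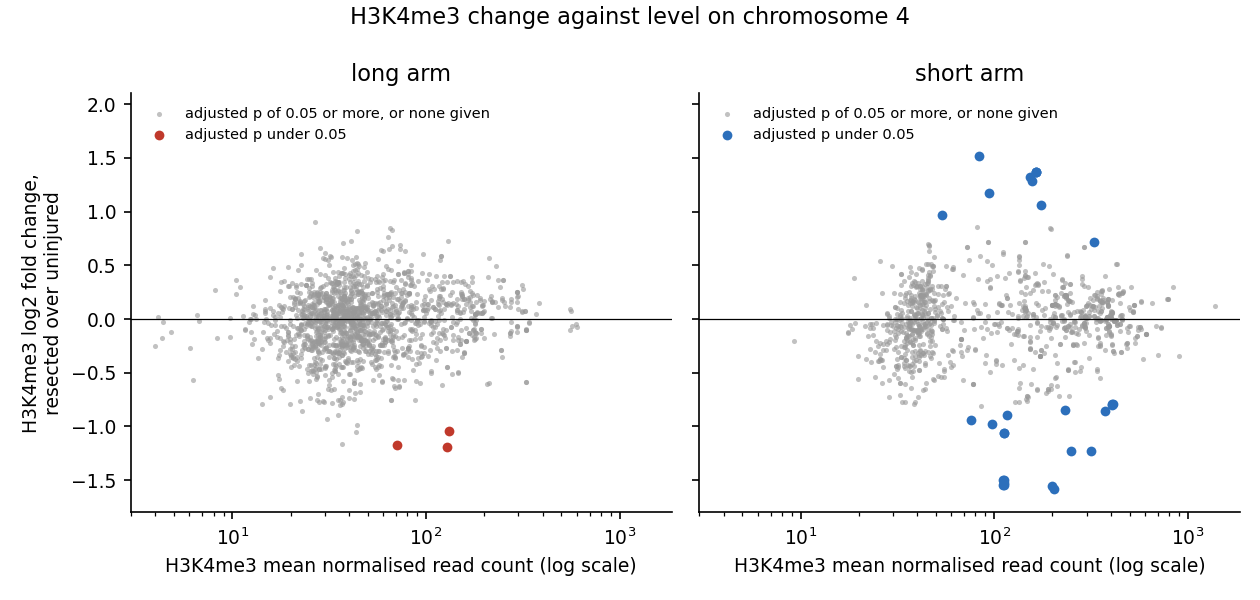
Log2 fold change of H3K4me3, resected over uninjured, against the mean normalised read count (log scale) for windows of the long arm and the short arm. Coloured points have an adjusted p under 0.05, 3 on the long arm, all lower, and 29 on the short arm, 10 higher and 19 lower; grey points do not or have none.

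H3K27me3 leaned upward across the long arm, by a small amount, and no single window passed the adjusted threshold. The median log2 fold change of resected over uninjured was 0.14 on the long arm (95% order-statistic interval 0.12 to 0.16, over windows), -0.04 on the short arm, -0.02 in the rest of the genome and -0.01 over all windows. It was above 0 at 1089 of 1629 long-arm windows (66.9%), 45.0% of short-arm windows and 48.3% of windows in the rest of the genome. The median standard error of a long-arm window was 0.41 on the log2 scale, larger than the median change.

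No window of any chromosome was called for H3K27me3 by the authors' Wald test, 0 of 41673, and the smallest adjusted p was 1.00. At an unadjusted p under 0.05 there were 58 long-arm windows (3.56%, against 3.14% over all windows), of which 41 were on the higher side (2.52%, against 0.996% over all windows) and 17 on the lower (1.04%, against 2.15% over all windows). On the short arm these counts were 13 higher and 22 lower, and in the rest of the genome 361 higher and 856 lower.

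The lean was seen along most of the arm. In the 10 bins of 5 Mb along it, the median log2 fold change of H3K27me3 ran from 0.05 in the first to 0.20 from 37 to 42 Mb, and was above 0 in each. Across the other 24 chromosomes the medians ran from -0.07 on chromosome 3 to 0.03 on chromosome 22, and the share of windows above 0 from 43.8% to 53.3%. Of the 263 stretches of 5 Mb elsewhere, 1 had a median at or above that of the arm. By stretch of the arm, the first had a median of -0.07 (32 windows higher, 40 lower), the middle 0.16 (846 higher, 359 lower) and the last 0.09 (211 higher, 141 lower).

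The H3K27me3 change differed with the level of the marks in each region. From the lowest to the highest quartile of H3K4me3 its median log2 fold change was 0.19, 0.15, 0.01 and -0.45 on the long arm. In the same quartiles it was 0.10, 0.07, -0.12 and -0.25 on the short arm and 0.09, 0.08, -0.06 and -0.22 in the rest of the genome. The lowest quartile held 45.3% of long-arm windows, 22.4% of short-arm windows and 24.2% of windows in the rest of the genome. Within quartiles of H3K27me3, from lowest to highest, the medians were -0.03, 0.09, 0.14 and 0.19 on the long arm, -0.28, -0.03, 0.06 and 0.09 on the short arm and -0.23, -0.08, 0.05 and 0.11 in the rest of the genome. Within a quartile the arm therefore differed from the rest of the genome by less than it did over all windows in the lower 3 quartiles of H3K4me3, and in the highest one, with 45 long-arm windows, it lay below. In the lower 2 quartiles of H3K27me3 the difference was wider than over all windows, and in the upper 2 narrower. The part that the levels of its windows play in the lean of the arm was not tested.

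**Figure D5:**
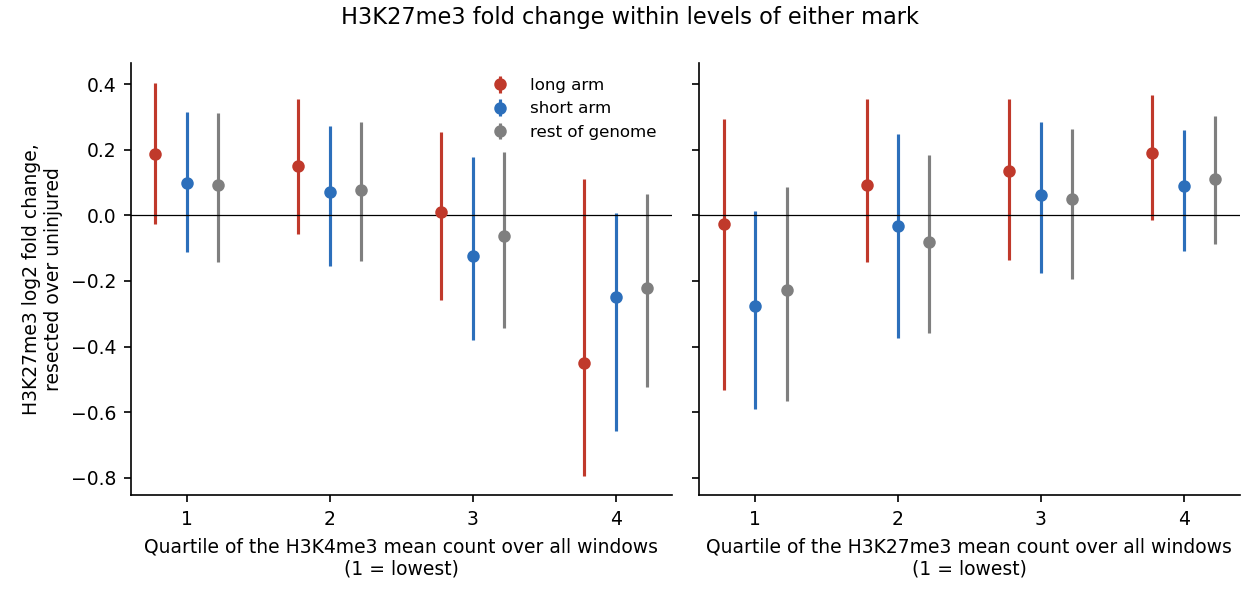
Log2 fold change of H3K27me3, resected over uninjured, by quartile of the H3K4me3 mean count over all windows (left panel) and of the H3K27me3 mean count (right panel). Points are medians and bars the interquartile range of windows for the long arm, the short arm and the rest of the genome; the long arm has the highest median except in the highest H3K4me3 quartile, where it is -0.45.

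Windows that overlap no other showed a smaller contrast. Their median H3K27me3 log2 fold change was 0.16 on the long arm, 0.06 on the short arm and 0.05 in the rest of the genome, with 69.5%, 54.2% and 56.0% above 0 in the same order. The long-arm value stayed close to that over all its windows, while the other regions moved above 0.

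The lean differed by kind of gene. Zinc finger windows of the arm had a median H3K27me3 log2 fold change of 0.13 (172 higher, 106 lower), against -0.07 in the rest of the genome. Clone-named windows had 0.16 (70.3% above 0), against 0.05 on the short arm and 0.07 in the rest of the genome (57.3% above 0). The other named genes of the arm had -0.02 (57 higher, 65 lower), against -0.06 on the short arm and -0.04 in the rest of the genome. Among windows that overlap no other, the clone-named contrast was smaller, with 0.16 on the long arm, 0.10 on the short arm and 0.11 elsewhere. Their shares above 0 were 70.8%, 60.0% and 62.5% in the same order. The zinc finger contrast of such windows was not smaller, with 0.20 on the long arm and -0.09 in the rest of the genome. The other named ones had 0.02, 0.02 and 0.04 on the long arm, short arm and elsewhere. The 44 windows of si:dkey-16p6.1 had a median of 0.16 (34 higher, 10 lower) and the 24 of ms4a17a 0.30 (19 higher, 5 lower). All 5 windows of 5.8S ribosomal RNA on the arm were below 0, between -0.32 and -0.12, with standard errors of 0.32 to 0.35.

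Single windows with the smallest unadjusted p for H3K27me3 were mostly clone-named, and none passed the adjustment. On the higher side the authors' deposited table lists si:dkeyp-85d8.5, with a log2 fold change of 1.05 and a standard error of 0.38 (unadjusted p 0.00620), si:dkey-165o8.2 with 1.59 and a standard error of 0.58, and si:dkey-51d8.3 with 0.90 and a standard error of 0.33. Next on that side were CABZ01021450.2, with 1.29 and a standard error of 0.48, and si:dkey-146c18.5, with 1.07 and a standard error of 0.41. The znf1141 window, strong in both marks, had 0.89 with a standard error of 0.34 (unadjusted p 0.00942). The strong ptprb window had 0.91 with 0.38 (unadjusted p 0.0178). On the lower side the znf1023 window at 46910366 had -1.93 with a standard error of 0.60 (unadjusted p 0.00126), at a mean count of 38.0. A window of another gene ID with that symbol, at 35858065, had 0.26 at a mean count of 65.3. The window of si:dkey-205i10.2 had -5.93 with a standard error of 2.18, at a mean count of only 10.3. Next lower were CT025651.1 with -2.26 and a standard error of 0.90, CABZ01083833.1 with -1.22 and 0.50, and BX936303.1 with -0.81 and 0.34. Not among the smallest p were the strong H3K4me3 promoters cerk and tbc1d22a, whose windows overlap. They had -1.17 and -1.19 with standard errors of 0.63 and 0.62, at H3K27me3 mean counts of 28.5 and 26.9. Their unadjusted p by the authors' Wald test were 0.0634 and 0.0549.

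Marker genes of several cell types differed in H3K4me3 between the conditions, and the tables give no level per condition for them. Of 10 cardiomyocyte markers, whose H3K4me3 signals ran from 49.8 to 203 with 8 above the median of all windows, 9 were called lower after resection (against 1.6% of all windows with an adjusted p) and 0 higher, with a median log2 fold change of -1.29. Of 9 leukocyte markers, 6 were called higher (against 1.44% of all windows with an adjusted p) and 0 lower, with a median of 1.03. In the smaller lists, 2 of 5 erythroid and 3 of 6 epicardial and fibroblast markers were called higher (against the same 1.44%). Of 5 endothelial and endocardial markers, 2 were called lower (against the same 1.6%). The H3K27me3 log2 fold change was above 0 at 10 of 10 cardiomyocyte markers, against 48.9% of all windows, with a median of 0.56. The standard errors of these 10 ran from 0.33 to 0.52. At the leukocyte markers it was above 0 at 2 of 9, with a median of -0.53. An unadjusted p under 0.05 by the authors' Wald test was seen at 1 of 10 and 3 of 9, against 3.14% of all windows. In either list 0 were called, as over all windows for this mark. A change in the mix of cells and a change per cell cannot be told apart in these libraries, and the part of the cell mix in the long-arm lean of H3K27me3 was not tested.

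Genes that act on heterochromatin and late replication did not change in H3K4me3 beyond the threshold. Of 35 listed, among them the H3K9 methyltransferases, HP1 proteins, DNA methyltransferases, PRC2 subunits and the replication timing factor rif1, 34 were found and 31 had an adjusted p. Of these 31, 0 were called by the authors' Wald test, against 3.04% of all windows with an adjusted p. An unadjusted p under 0.05 was seen at 1 of the 34, jarid2a, against 8.47% of all windows. Their median H3K4me3 signal was 321, their median H3K4me3 log2 fold change 0.02 and their median H3K27me3 log2 fold change -0.08. For H3K27me3, 3 of the 34 had an unadjusted p under 0.05, all lower (dnmt3ba with -1.66, ezh1 with -1.19 and eed with -0.99), and 0 were called. Over all windows 3.14% had an unadjusted p under 0.05 for this mark, 2.15% on the lower side. None of them lies on the long arm.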

How the data were processed

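Per the labels, 12 ChIP-seq libraries and 1 mixed input came from cells of zebrafish ventricles enriched for cardiomyocytes. The submitters' processing notes name BWA, MACS2, Bowtie2 2.3.2, Picard 2.8.1, SAMtools, bedtools 2.26.0 and DESeq2, and 3 builds (danRer10, danRer7, GRCz10) whose roles are unstated; the build of the windows, the depth of each library and the treatment of reads with several matches are not given in the sources used here. Coordinates are counted from 1.

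The signal of a window is the mean normalised count deposited by the authors, per the file headers, and the log2 fold change with its standard error, the Wald score, the p-value and the adjusted p-value are also the authors' deposited values. H3K4me3 standard errors never exceeded 0.301 and those of H3K27me3 reached 3.05. Where fold changes of both marks are given together, their sizes were therefore not compared. Values per library are not in these tables, so the edgeR test that had been planned gave way to the authors' comparison, called at an adjusted p under 0.05.

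Medians, shares, 95% order-statistic and exact binomial intervals and Spearman's rho were computed with Python 3.11.15, pandas 2.3.3, numpy 2.4.6 and scipy 1.17.1, and the scripts were tested on simulated data. Precision per window is the authors' standard error; intervals over windows cover the counting of windows only. Gene groups followed symbols and reference gene names, which hold 694 of the 1142 long-arm gene IDs. Genes were named by fixed ranks: called windows, the 5 lowest p each way if under 5 were called, the 10 highest means per mark and among named genes, 3 windows on each side of the boundary, and the 5 highest rank products; genes of the strong, repeated and family groups were added after their values were seen. The region, lists and tests were chosen with earlier results of these data known. No sequence was read.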

Additional observations from a re-analysis of the deposited data

How the results depend on the processing

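Of 66 alternative values for the 8 summary results, 53 stayed and 13 moved. Medians and shares that stayed lay within the interval over windows of the main value. Counts of called windows that stayed were equal to the main count. No called value changed sign, but the H3K4me3 median log2 fold change, 0.00 with an interval that spans 0, was -0.0038 after centring and -0.0015 in the 30 to 70 Mb stretch, and its share above 0 went below 50% in both (49.0% and 49.6%). The H3K27me3 median log2 fold change of the long arm stayed between 0.14 and 0.16 under every alternative run: a start at 25 or 30 Mb, 1 window per gene, windows overlapping no other, a minimum mean count of 10, windows with an adjusted p, centring on all windows, and the 30 to 70 Mb stretch alone, the last chosen after seeing the data. Its share above 0 moved from 66.9% to 70.2% in that stretch and to 69.5% without overlaps. The H3K27me3 level moved from 69.8 to 76.4 in that stretch and to 74.1 with 1 window per gene. The H3K4me3 level moved from 42.4 to 38.9, 43.9 and 37.1 under those 3 alternatives in the order of stretch, gene and overlap, and to 88.7 among windows with an adjusted p, which are chosen for high counts; there the median H3K4me3 log2 fold change was 0.043 and the share above 0 was 53.9%. The 3 called H3K4me3 windows became 5 with the adjustment over all windows, 5 at an adjusted p under 0.1 and 1 without overlaps; the count for H3K27me3 stayed at 0. No paired analysis was possible because the tables hold no value per library, and for the same reason leaving out each replicate and DESeq2 size factors were not run. The depth of each library is unknown, and windows with a mean count under 51.8 have no adjusted p for H3K4me3.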

Other observations

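Several named genes of the long arm had H3K27me3 signals well above the median of its windows, and were picked after their values were seen. The planar polarity cadherin gene celsr1a had an H3K27me3 signal of 116 with an H3K4me3 signal of 109 at one window, and crestin, a marker of neural crest cells, had 103 with 55.1. The gene fam19a5a, which encodes a secreted protein, had 93.4 for H3K27me3 with 46.1 for H3K4me3 at one of its windows. For H3K4me3 the celsr1a and crestin windows were not called by the authors' Wald test. The fam19a5a window lay below the count at which an adjusted p is given, so it could not be called. For H3K27me3 no window of any chromosome was called, so the lack of a call is not particular to these genes.

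Some named genes were low in both marks. At il17ra2 and il17ra1b, neighbouring genes of interleukin 17 receptors, H3K4me3 signals ran from 13.6 to 20.5 and H3K27me3 signals from 30.0 to 40.4 over their 4 windows. At arfgap3, a regulator of Golgi traffic, the windows had 23.1 and 15.3 for H3K4me3 and 20.6 and 29.8 for H3K27me3.

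The gene large, which glycosylates dystroglycan, had an H3K4me3 log2 fold change of -0.60 at each of its 2 stronger windows, which overlap and share reads. Their mean counts were 207 and 211 and their adjusted p 0.210 and 0.222 by the authors' Wald test, so neither was called. The 3 windows of ttll1, a tubulin glutamylase gene, that start between 76533286 and 76533965 overlap and share reads. Their H3K4me3 log2 fold changes were -0.75, -0.69 and -0.61 at mean counts of 42.6, 42.9 and 45.9. A further window of this symbol, at 76375532, had 2.57e-05 at a mean count of 36.6. All of these lie below the count at which an adjusted p is given.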
